A study of Mus musculus with 47 samples.

Results

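The aquaporins are the membrane channels that carry water, and in some members glycerol and urea, across cell membranes, and their 10 genes analysed here (Aqp1, Aqp2, Aqp3, Aqp4, Aqp5, Aqp7, Aqp8, Aqp9, Aqp11 and Aqp12) were taken by symbol from the 23416 genes counted in every library. They were followed in 5 groups of male mice with 2 libraries each, described by the labels as 8 to 12 weeks old. Ctrl-F1 and Scml2-KO-F1 (KO-F1) males of background strain BDF2 were the offspring of littermate wild-type or Scml2-KO sires, whose testicular sperm were injected into BDF1 oocytes (ICSI), and both their livers and their cauda epididymal spermatozoa were sequenced. Scml2-KO-F2 (KO-F2) spermatozoa, of background strain BDF3, came from the next generation, after natural mating of single F1 males with C57BL/6 females, and had no control group of their own generation. Scml2 encodes a germline Polycomb protein on the X chromosome, so a KO sire hands no mutant copy to a son, and the F1 comparison asks whether the sire's genotype left a trace in wild-type offspring.

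Aquaporins assemble as tetramers in which each subunit has its own pore. Aqp1, Aqp2, Aqp4, Aqp5 and Aqp8 belong to the water-selective branch, with Aqp8 also passing ammonia and hydrogen peroxide. Aqp3, Aqp7 and Aqp9 are aquaglyceroporins that pass glycerol as well, and Aqp11 and Aqp12 form a divergent branch that resides largely inside the cell. In liver, Aqp9 takes up glycerol for gluconeogenesis. In the male tract, aquaporins serve fluid handling of the duct and the volume regulation of sperm on leaving the epididymis.

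The liver libraries held 11339729 to 14278900 counts, the F1 spermatozoa libraries 1503733 to 2778171 and the KO-F2 spermatozoa libraries 11462105 and 8384266. A floor of 3 counts equals 0.210 to 0.265 CPM (read counts scaled to a common library total) in liver, 1.08 to 2.00 CPM in F1 spermatozoa and 0.262 and 0.358 CPM in KO-F2 spermatozoa, so weak transcripts were measurable in KO-F2 spermatozoa that could not be seen in F1 spermatozoa. Levels are given as normalized CPM, scaled by TMM (the trimmed mean of M-values) within liver and within spermatozoa, and per kb of merged exon where genes are compared with each other. Liver libraries were made with a stranded mRNA kit and spermatozoa libraries with a low-input full-length cDNA kit, so tissue and kit cannot be told apart. Within spermatozoa, the KO-F2 libraries carry a sequencing run name (run0133) that the F1 labels do not give, so generation, strain and run cannot be told apart. The livers held all 6 hepatocyte markers, and 14 or 15 of the 20 spermatid and sperm transcripts were at 0 in both libraries of a liver group. All 20 of those transcripts were detected in every spermatozoa library, but so were 7 to 10 of 10 markers of epididymal principal cells, the secretory cells that line the duct. For the F1 spermatozoa the paper reports no expression of epididymal somatic markers, using a marker list from another study. That list was not compared with the 10 markers used here. The libraries are from bulk samples, in which fewer cells of a type and less RNA per cell cannot be told apart.

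Liver and spermatozoa held different sets of aquaporins. In liver, 5 members exceeded 3 counts in every library (Aqp1, Aqp4, Aqp8, Aqp9 and Aqp11), and per kb Aqp9 took 52.7% to 68.8% of the summed aquaporin level, followed by Aqp8 with 25.1% of the Ctrl-F1 and 28.7% of the KO-F1 group mean. In spermatozoa, 3 members did so in all libraries (Aqp7, Aqp9 and Aqp11), and Aqp11 alone took 74.5% to 95.7%. Aqp2, the vasopressin-regulated channel of the kidney collecting duct, had no count in any of the 10 libraries. Of the family members outside the list, Aqp6 was also at 0 in all 10 libraries, and Mip, the lens fibre aquaporin, had 5 and 3 counts in the KO-F1 and 2 and 0 in the KO-F2 spermatozoa libraries.

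**Figure D1:**
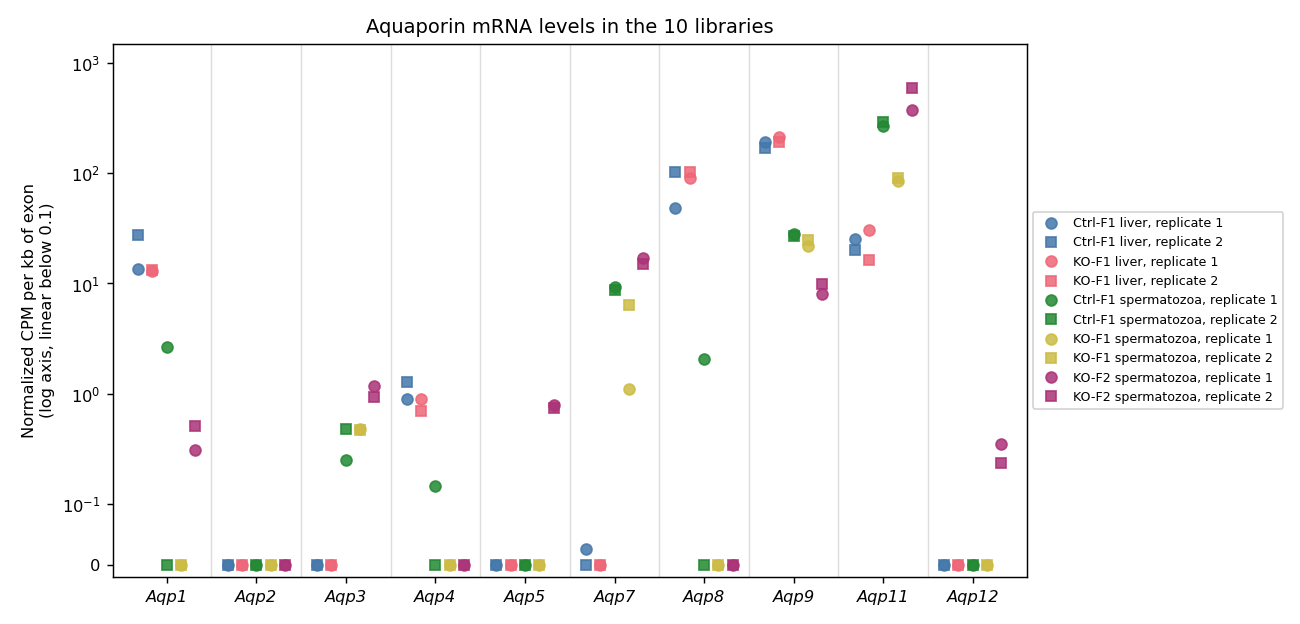
Level of each of the 10 aquaporins in each of the 10 libraries, in normalized CPM per kb of exon on a log axis that is linear below 0.1; colours mark groups and symbols mark replicates. Aqp9 and Aqp8 stand highest in the 4 liver libraries and Aqp11 in the 6 spermatozoa libraries, whereas Aqp2 is at 0 throughout.

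**Figure D2:**
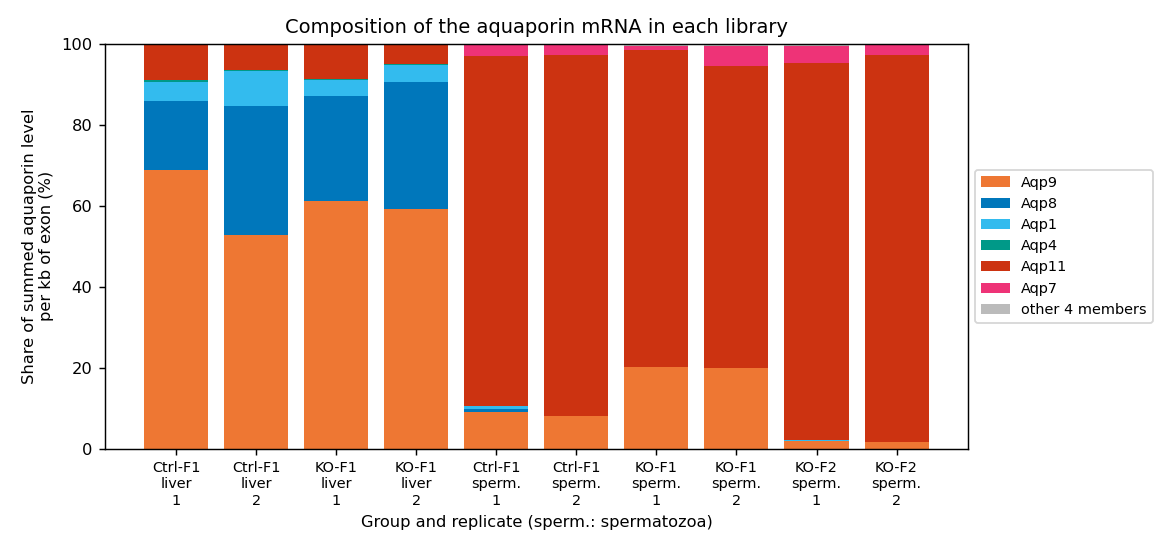
Share of each aquaporin in the summed level per kb of exon, in percent, with 1 bar for each of the 10 libraries. Aqp9 fills 52.7% to 68.8% of the liver bars and Aqp11 74.5% to 95.7% of the spermatozoa bars.

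The RefSeq windows around the transcription start (GRCm38.p6, 250 bases before to 50 after) matched 9 of the 10 members with 11 windows, since Aqp7 and Aqp9 have 2 windows each and the Aqp4 window was not used here. They are shown for the 3 aquaporins detected in all spermatozoa libraries and for Aqp8, second to Aqp9 in liver, with every CG dinucleotide in capitals. For Aqp7 and Aqp9 the more upstream of their 2 windows is printed; the annotation also holds transcripts that start further upstream, and counts per gene do not tell which start was used.
Aqp11, chr7:97738198-97738497, minus strand: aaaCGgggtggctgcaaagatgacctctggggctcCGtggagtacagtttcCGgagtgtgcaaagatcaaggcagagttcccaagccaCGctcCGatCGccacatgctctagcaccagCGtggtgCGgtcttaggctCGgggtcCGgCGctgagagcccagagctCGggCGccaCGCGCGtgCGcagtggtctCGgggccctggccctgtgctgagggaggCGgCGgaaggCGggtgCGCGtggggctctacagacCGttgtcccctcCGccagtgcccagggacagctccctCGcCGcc
Aqp7, chr4:41048087-41048386, minus strand: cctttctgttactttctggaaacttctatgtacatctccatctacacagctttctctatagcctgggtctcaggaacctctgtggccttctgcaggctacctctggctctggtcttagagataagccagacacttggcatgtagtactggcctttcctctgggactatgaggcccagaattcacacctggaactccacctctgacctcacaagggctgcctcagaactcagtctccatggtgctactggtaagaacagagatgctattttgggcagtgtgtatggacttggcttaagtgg
Aqp9, chr9:71163240-71163539, minus strand: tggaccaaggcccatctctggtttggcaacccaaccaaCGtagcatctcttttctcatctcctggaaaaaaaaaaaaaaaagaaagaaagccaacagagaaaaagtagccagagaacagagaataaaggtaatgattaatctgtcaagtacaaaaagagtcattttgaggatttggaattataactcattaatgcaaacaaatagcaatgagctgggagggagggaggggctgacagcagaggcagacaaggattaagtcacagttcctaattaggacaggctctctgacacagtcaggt
Aqp8, chr7:123462044-123462343, plus strand: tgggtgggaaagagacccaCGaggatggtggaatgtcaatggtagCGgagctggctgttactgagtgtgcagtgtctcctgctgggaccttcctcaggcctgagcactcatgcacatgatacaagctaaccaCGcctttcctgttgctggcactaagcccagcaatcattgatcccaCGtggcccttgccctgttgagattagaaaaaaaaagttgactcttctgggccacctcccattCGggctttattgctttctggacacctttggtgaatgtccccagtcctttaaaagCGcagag
The Aqp11 window held 27 CG dinucleotides and was 68.0% G or C. Of the 32851 windows of all genes, 15.5% held as many or more, and the median was 7. The Aqp7 window shown held none, which was true of 5.43% of all windows, and the Aqp9 window shown held 1, with 14.1% of windows holding as many or fewer. The second windows of Aqp7 and Aqp9 held 3 and 4. The only window of Aqp8, shown above, held 6. A search of both strands for TGACG, the half-site bound by CREB and CREM factors, found it in 2 of the 11 windows (Aqp2 and Aqp12), against 20.8% of all windows. The TATA box letters TATAAA occurred in 1 of 11 (Aqp3), against 13.6%. The full site TGACGTCA, which contains the half-site, occurred in 0 of 11, against 1.79%.

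Among the water-selective members, Aqp8, which in hepatocytes lies in the canalicular and inner mitochondrial membranes, had 71.7 and 153 normalized CPM in Ctrl-F1 liver and 135 and 152 in KO-F1 liver. The lower Ctrl-F1 library stood apart from the other 3, and the groups overlapped. In spermatozoa Aqp8 had 7 counts in Ctrl-F1 replicate 1 and none in the other 5 libraries. Between the tissues of the Ctrl-F1 males it was lower in spermatozoa by edgeR's quasi-likelihood test (log2 fold change -5.86, SE 0.93, Benjamini-Hochberg adjusted p = 0.00669). In KO-F1 males, whose spermatozoa had no Aqp8 count, its level was at least 111-fold lower than in liver, taking 3 counts per library as the floor.

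Aqp1, the water channel of endothelium, red cells and the efferent ducts, had 37.1 and 76.2 normalized CPM in Ctrl-F1 liver and 35.7 and 36.9 in KO-F1 liver. Its higher Ctrl-F1 library, replicate 2, also had the highest liver sum of 6 endothelial markers, at 65.4 normalized CPM. The sums were 31.1, 33.7 and 47.0 in Ctrl-F1 replicate 1, KO-F1 replicate 1 and KO-F1 replicate 2, where Aqp1 had 37.1, 35.7 and 36.9. Kdr was highest in Ctrl-F1 replicate 2 (16.6 against 6.52 to 9.22), whereas Pecam1 was highest in KO-F1 replicate 2 (9.31 against 8.16 in Ctrl-F1 replicate 2). The part of endothelium in the Aqp1 level was not tested. In spermatozoa Aqp1 had 17 counts in Ctrl-F1 replicate 1, none in the other 3 F1 libraries, and 9 and 11 in KO-F2. Ctrl-F1 replicate 1 was the only spermatozoa library with counts of Aqp8 and Aqp4 too (7 and 2). Of the 6 hepatocyte markers it held 2 counts of Alb and 0 of Apoa1, Ttr, Cps1, Serpina1c and Hpx. Its endothelial markers summed to 26.9 normalized CPM, against 5.84 to 10.997 in the other 3 F1 spermatozoa libraries. That sum held Pecam1, Vwf and Tek (18, 21 and 22 counts) and 1 count of Egfl7, with Cdh5 and Kdr at 0. Without any Aqp1 count, Ctrl-F1 replicate 2 and KO-F1 replicate 2 had 4 and 14 counts of Cdh5, and KO-F1 replicate 1 had 22 of Tek. The KO-F2 libraries had endothelial sums of 19.3 and 23.5 and hepatocyte sums of 3.41 and 2.03.

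Aqp4, best known from the astrocyte endfoot, was the weakest of the liver members, with 5.41 and 7.62 normalized CPM for Ctrl-F1 and 5.38 and 4.15 for KO-F1 liver. Aqp5, the channel of salivary and lacrimal glands, was at 0 in liver and in F1 spermatozoa and had 13 and 9 counts in KO-F2 spermatozoa, or 1.23 and 1.14 normalized CPM. That level lies near the F1 floor of 1.08 to 2.00 CPM, so no difference from F1 spermatozoa was detectable at this depth.

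Among the aquaglyceroporins, Aqp9 was the highest aquaporin of the liver, with 602 and 527 normalized CPM for Ctrl-F1 and 662 and 599.5 for KO-F1. Per kb its mean exceeded that of Aqp8, the next in order, 2.40-fold in Ctrl-F1 and 2.099-fold in KO-F1 liver, without overlap of the libraries. Aqp11 and Aqp1 followed and overlapped in Ctrl-F1 (20.3 and 25.2 against 13.5 and 27.6 normalized CPM per kb). In spermatozoa Aqp9 had 86.8 and 84.3 normalized CPM for Ctrl-F1, 68.0 and 76.6 for KO-F1, and 24.7 and 30.6 for KO-F2. The KO-F2 libraries were the lowest, and with this TMM scaling no pair of these 3 groups overlapped. In CPM of the library total the order of the F1 groups was reversed, with 82.4 and 67.2 for Ctrl-F1 and 88.2 and 90.2 for KO-F1. KO-F2 stayed lowest, with 22.8 and 28.7. How many of all genes lacked overlap was not determined.

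Aqp7, through which adipocytes release glycerol and which is also found in spermatids and the sperm tail, was a spermatozoa transcript here. It had 1 count over the 4 liver libraries. In spermatozoa it had 25.6 and 24.2 normalized CPM for Ctrl-F1, 3.05 and 17.5 for KO-F1 and 47.4 and 41.4 for KO-F2. KO-F1 replicate 1, with 11 counts, stood below the other libraries, and with this TMM scaling the 3 groups did not overlap. In CPM of the library total the F1 groups did overlap, with 24.3 and 19.3 for Ctrl-F1 and 3.96 and 20.6 for KO-F1. The share of all genes without overlap was not determined. The 5 adipocyte markers summed to 2.44 to 10.0 normalized CPM in F1 and 15.2 and 24.1 in KO-F2 spermatozoa. Adipoq, the gene of adiponectin, had 1.22 to 10.0 in the 6 libraries. Fabp4, a fatty acid binding protein of adipocytes, macrophages and endothelium, had at most 0.868 in F1 and 7.29 and 19.0 in KO-F2, Plin1 at most 1.39, and Lep, the gene of leptin, was at 0. The part of adipocytes in the Aqp7 level was not tested. Aqp3, the basolateral glycerol channel of epithelia that is also present in the sperm tail, was at 0 in liver. It had 1 to 3 counts in the F1 spermatozoa libraries, at or under the floor, and 22 and 13 counts in KO-F2, or 2.08 and 1.65 normalized CPM, so the F1 libraries were too shallow to show a difference.

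In the divergent branch, Aqp11, an endoplasmic reticulum protein whose loss causes polycystic kidneys in mice, was well above the floor of 3 counts in all 10 libraries, as was Aqp9. It had 33.4 and 26.9 normalized CPM in Ctrl-F1 liver and 40.3 and 21.7 in KO-F1 liver. In spermatozoa it had 353 and 391 for Ctrl-F1, 112 and 121 for KO-F1 and 498 and 796 for KO-F2. The KO-F1 libraries were the lowest and the KO-F2 libraries the highest, with no overlap between the groups, also in CPM of the library total. How many of all genes lacked overlap was not determined. Per kb, Aqp11 stood 10.2-fold over Aqp9 in Ctrl-F1 and 3.797-fold in KO-F1, and in KO-F2 30.5-fold over Aqp7, which there replaced Aqp9 as the second. Aqp12, the aquaporin of pancreatic acinar cells, was at 0 in liver and F1 spermatozoa and had 4 and 2 counts in KO-F2 spermatozoa. The 5 pancreatic acinar markers summed to 30.0 to 50.7 normalized CPM in liver, 3.04 to 24.1 across the F1 spermatozoa and 10.0 and 6.73 for KO-F2. Most of this was Cela1, an elastase family gene, with 8.90 and 5.21 in KO-F2, whereas Cpa1 and Pnlip were at 0 in all 10 libraries. The part of such cells in the Aqp12 counts was not tested.

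The tissues were compared within each sire group, with a gene called when it differed at least 2-fold at an adjusted p under 0.01 (edgeR's quasi-likelihood test, Benjamini-Hochberg over all genes tested). In Ctrl-F1 males, 6 of 10 members passed the filter on low counts and 4 were called, against 30.2% of the 13204 genes tested (18.6% higher and 11.6% lower in spermatozoa). Aqp11 was higher in spermatozoa (log2 fold change 3.65, SE 0.29, adjusted p = 0.00124), as was Aqp7 (8.98, SE 0.93, adjusted p = 0.00224), and Aqp9 was lower (-2.69, SE 0.26, adjusted p = 0.00194), as was Aqp8. Aqp7 rested on 1 liver count, and the ratio of its summed CPM was 634 (95% exact Clopper-Pearson interval 111 to 25309, for counting error only). Aqp1 (log2 fold change -3.70, adjusted p = 0.0386) and Aqp4 (-3.54, adjusted p = 0.0438) did not pass. Without spermatozoa replicate 1, the library that held their counts, all 6 passed, and they also passed without replicate 2, but the calls over all genes then rose from 3990 to 7376 and 8366. For Aqp4 the ratio of summed CPM, liver over spermatozoa, was 13.1 (interval 3.58 to 109).

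In KO-F1 males the same 6 members were tested and all 6 were called, against 35.7% of the 13076 genes tested (19.8% higher and 15.8% lower in spermatozoa). Aqp11 (log2 fold change 1.77, SE 0.37, adjusted p = 0.00886) and Aqp7 were higher in spermatozoa, Aqp7 by at least 48.2-fold over the liver floor. Aqp9 was lower (-3.27, SE 0.29, adjusted p = 0.000425). Aqp1 and Aqp4 were lower, by at least 28.2-fold and 3.72-fold. Aqp11, Aqp7 and Aqp4 had adjusted p-values of 0.00881 to 0.00916, close to the limit, and without either KO-F1 liver library 3 of the 6 calls remained (Aqp1, Aqp8 and Aqp9), with 1761 and 1743 calls over all genes against 4662. Whether the tissue difference of Aqp11 itself differed between the sire groups was not tested.

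In liver, no aquaporin passed the test between sires. Of 5 members tested, 0 were called, against 0% of all 11505 genes tested, and 0 had an unadjusted p under 0.05, against 9.41%. DESeq2 also called 0 of the members, against 0.274%. The log2 fold changes of KO-F1 over Ctrl-F1 were -0.64 for Aqp1 (SE 0.30, adjusted p = 0.553), -0.44 for Aqp4, 0.36 for Aqp8, 0.17 for Aqp9 (SE 0.16, adjusted p = 0.776) and 0.05 for Aqp11. Without Ctrl-F1 liver replicate 1, Aqp1 was called lower (log2 fold change -1.06, adjusted p = 0.00446), as were 107 genes in all against 0, and without replicate 2, its high library, the difference was -0.02. Aqp8 went from 0.36 to -0.08 without Ctrl-F1 replicate 1, and 1.01 without replicate 2.

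In spermatozoa of the F1 males, the 3 members tested were lower in the KO-F1 mean, and none was called, against 0% of the 10785 genes tested. Aqp11 had a log2 fold change of -1.61 (SE 0.38, unadjusted p = 0.00287, adjusted p = 0.140 by edgeR), or a 3.19-fold lower mean in KO-F1. It was 1 of 3 members with an unadjusted p under 0.05, against 19.5% of all genes. DESeq2 called it (log2 fold change -1.58, adjusted p = 0.00127), where it called 7.80% of the genes with an adjusted p. Aqp7 had -1.22 (SE 0.92, adjusted p = 0.513), a value set by KO-F1 replicate 1, since it was -2.92 without replicate 2 and -0.45 without replicate 1. Aqp9 had -0.18 (SE 0.41, adjusted p = 0.866). With library totals in place of TMM, Aqp9 had 0.25.

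**Figure D3:**
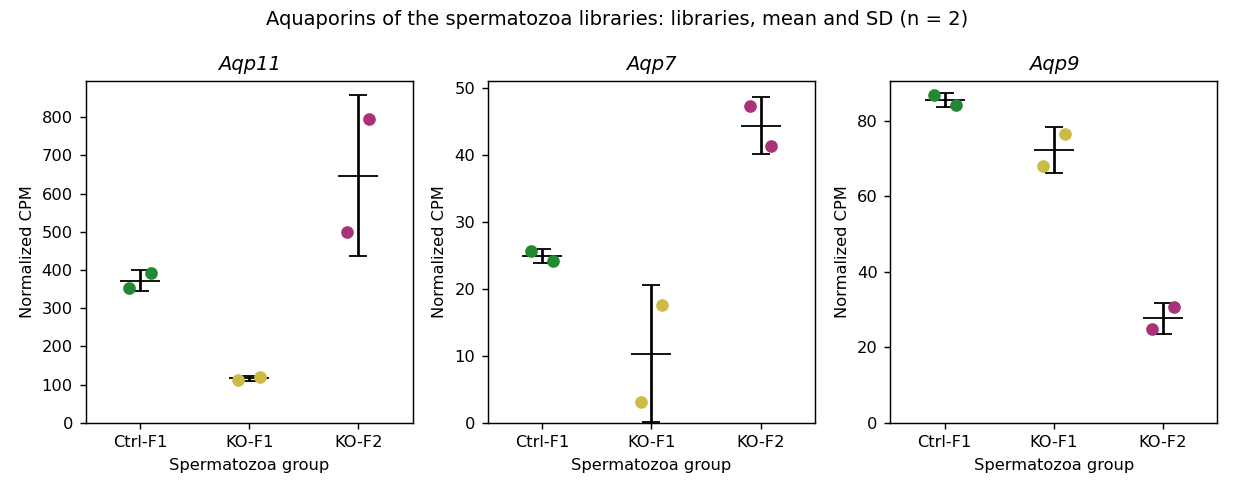
Normalized CPM of Aqp11, Aqp7 and Aqp9 in the 3 spermatozoa groups; points are libraries, the wide bar is the mean and the whiskers are the SD (n = 2). With this TMM scaling Aqp11 has 112 and 121 in KO-F1 against 353 and 391 in Ctrl-F1 and 498 and 796 in KO-F2, whereas Aqp9 is lowest in KO-F2 (24.7 and 30.6).

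The sperm transcripts moved with Aqp11. The 20 spermatid and sperm transcripts, among them the protamines Prm1 and Prm2 and the tail proteins Odf1 and Akap4, summed to 149678 and 157502 normalized CPM for Ctrl-F1, 48020 and 40162 for KO-F1 and 177608 and 171270 for KO-F2. All 20 lay below Ctrl-F1 in the KO-F1 spermatozoa at an unadjusted p under 0.05, against 19.5% of all genes at that p in either direction. Their median log2 fold change was -1.86 beside 0.02 over all genes tested. edgeR called 0, against 0%, and DESeq2 called 18, against 7.80%. Per 1000 normalized CPM of these transcripts, Aqp11 had 2.36 and 2.48 for Ctrl-F1, 2.33 and 3.01 for KO-F1 and 2.81 and 4.65 for KO-F2. When the libraries were scaled to this list, the log2 fold change of Aqp11 between KO-F1 and Ctrl-F1 was 0.21 (adjusted p = 0.704), that of Aqp7 was 0.61 (adjusted p = 0.646) and that of Aqp9 was 1.66 (adjusted p = 0.0283). That scaling raised the median of all genes to 1.85. The list holds Prm1, Prm2, Prm3 and Tnp2, which the paper reports as downregulated in KO-F1 spermatozoa from these same libraries. Scaling to it removes a fall shared with the list by construction, so it shows Aqp11 only relative to these transcripts. The part of the sperm transcripts in the Aqp11 level was not tested.

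In KO-F2 spermatozoa compared with Ctrl-F1, Aqp9 was the member with the largest difference (log2 fold change -1.70, SE 0.34, unadjusted p = 0.00231, adjusted p = 0.164 by edgeR), a 3.09-fold lower mean. Of 3 members tested 0 were called, against 0% of the 13149 genes tested, and Aqp9 was the 1 member with an unadjusted p under 0.05, against 14.9%. DESeq2 called it (adjusted p = 0.00651), where it called 2.14% of genes. Aqp7 (0.76, adjusted p = 0.422) and Aqp11 (0.73, adjusted p = 0.398) lay above Ctrl-F1 in both KO-F2 libraries without passing. The share of all genes that did so was not determined.

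The summed levels of principal cell and clear cell markers of the duct were, like Aqp9, lowest in KO-F2. Those of basal epithelial cells were not, with 22.4 and 43.2 normalized CPM in KO-F2 against 5.01 to 24.7 in F1 spermatozoa. The 10 principal cell markers summed to 23345 and 9194 normalized CPM for Ctrl-F1, 11799 and 13182 for KO-F1 and 4243 and 1942 for KO-F2 spermatozoa. The abundant Crisp1, a secreted protein of the epididymis that coats sperm, had a log2 fold change of -2.63 between KO-F2 and Ctrl-F1 (adjusted p = 0.212), and Adam7, a membrane protein of principal cells, had -2.41 (adjusted p = 0.149). The clear cell factor Foxi1 had -2.82 (adjusted p = 0.196). The principal cell list as a whole did not move one way, since 4 of its 9 tested markers lay higher and 5 lower, with a median of -0.09 beside 0.07 over all genes. At an unadjusted p under 0.05, 1 lay higher and 3 lower, against 14.9% of all genes. edgeR called 0, against 0%, and DESeq2 called 3, all lower, against 2.14%. Lcn9 had 2.19 (adjusted p = 0.293) and Cst8 had 0.66 (adjusted p = 0.397). Per 1000 normalized CPM of the markers Aqp9 had 3.72 and 9.16 for Ctrl-F1, 5.76 and 5.81 for KO-F1 and 5.83 and 15.8 for KO-F2. Of the 5 leukocyte markers, Cd52, which is also a major surface protein of the male duct, had 2994 to 23672 normalized CPM in F1 and 3290 and 1502 in KO-F2 spermatozoa. Lyz2, a lysozyme of macrophages and granulocytes, had 50.3 to 337 in F1 and 2072 and 3425 in KO-F2 spermatozoa. The part of these cells in the Aqp9 level was not tested.

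**Figure D4:**
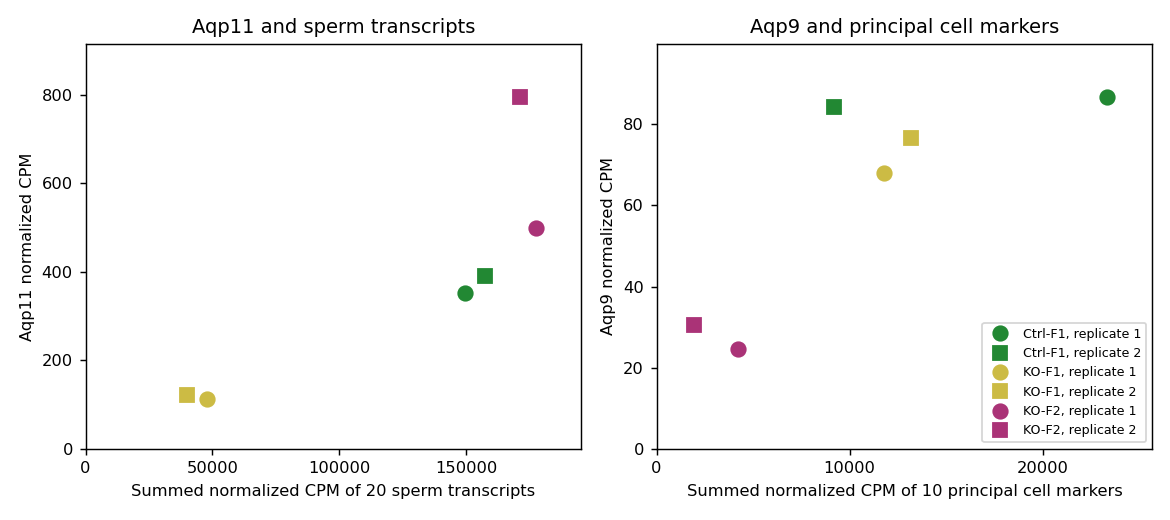
Left, Aqp11 against the summed normalized CPM of 20 spermatid and sperm transcripts; right, Aqp9 against that of 10 principal cell markers; each point is 1 of the 6 spermatozoa libraries. The KO-F1 libraries have the lowest Aqp11 and the lowest sperm sums (48020 and 40162), and the KO-F2 libraries have the lowest Aqp9 and the lowest principal cell sums (4243 and 1942).

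When KO-F2 was compared with KO-F1 spermatozoa, Aqp11 rose by 2.48 on the log2 scale (SE 0.36, adjusted p = 0.00982 by edgeR), or 5.55-fold. It was the 1 member called of 3 tested, against 2.31% of the 13517 genes tested, with 2.11% called higher and 0.2% lower. Aqp7 was 4.32-fold higher in the mean (log2 fold change 2.16, SE 0.72, adjusted p = 0.0735) and Aqp9 2.61-fold lower (-1.38, SE 0.33, adjusted p = 0.0294). All 3 had an unadjusted p under 0.05, as did 36.8% of all genes. DESeq2 called Aqp11 and Aqp9, and 13.6% of genes. Without KO-F2 replicate 2, in which Aqp11 was highest, its adjusted p was 0.0156, and without KO-F1 replicate 1 or 2 or KO-F2 replicate 1 it was 0.0030 to 0.00816. Without KO-F1 replicate 2, Aqp7 was called too (log2 fold change 3.82, adjusted p = 0.000920), while the calls over all genes rose from 312 to 2898. When the libraries were scaled to the sperm transcripts, the log2 fold change of Aqp11 was 0.22 (adjusted p = 0.633), and the median over all genes went from 0.13 to -2.16. All 20 sperm transcripts were higher in KO-F2 than in KO-F1 at an unadjusted p under 0.05, with a median of 2.48, and 5 were called. This comparison and the comparisons with Ctrl-F1 share libraries and are not independent.

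**Figure D5:**
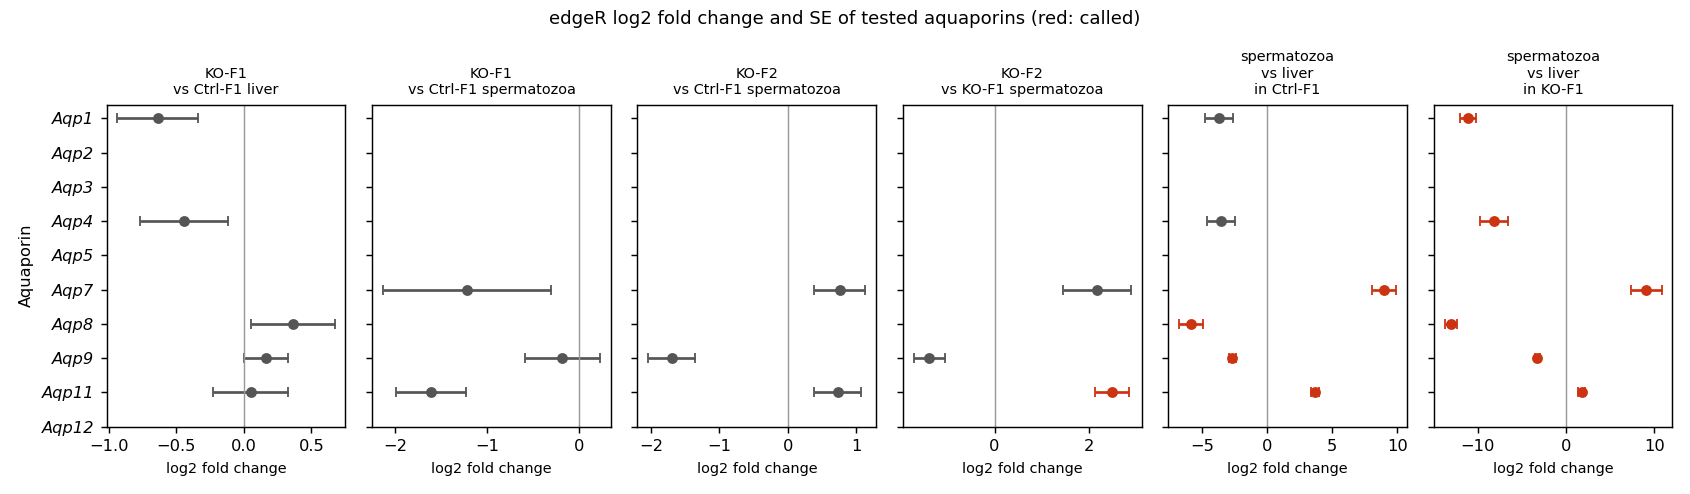
log2 fold change and its SE from edgeR for the aquaporins that passed the filter on low counts, with 1 panel for each of the 6 comparisons and its own axis; red marks a fold of at least 2 at an adjusted p under 0.01. Red points are Aqp11 between KO-F2 and KO-F1 spermatozoa, 4 members between the tissues of Ctrl-F1 males and 6 in KO-F1 males; values of genes at 0 in a whole group depend on the prior count and are not bounds.

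Genes that work beside the aquaporins were described from lists on glycerol, urea, duct transport and cell volume. In liver and in both comparisons of spermatozoa with Ctrl-F1, edgeR called 0 genes of the 4 lists. In liver 3 of 30 tested had an unadjusted p under 0.05, near the 9.41% of all genes, and DESeq2 called 0, against 0.274%. In KO-F1 against Ctrl-F1 spermatozoa these counts were 7 of 28, against 19.5%, and 2, against 7.80%. For KO-F2 against Ctrl-F1 spermatozoa they were 6 of 32, against 14.9%, and 1, against 2.14%. When KO-F2 was set against KO-F1 spermatozoa, the 9 tested glycerol genes had a median of 1.16 beside 0.13 over all genes tested. Of the 9, 2 were called, both higher, against 2.31% of all genes called and 2.11% called higher. These were Gk2, the glycerol kinase of the testis (log2 fold change 2.97, adjusted p = 0.00911), with 117 and 30.9 normalized CPM for Ctrl-F1, 17.8 and 17.9 for KO-F1 and 161 and 117 for KO-F2, and Gpd2, the mitochondrial glycerol-3-phosphate dehydrogenase (2.56, adjusted p = 0.00980). Of 10 tested genes of duct transport, 1 was called, also higher, against the same shares of all genes. It was Car2, the cytosolic carbonic anhydrase (2.51, adjusted p = 0.00982), with 129 and 199.6 in KO-F1 and 916 and 949 in KO-F2 spermatozoa. None of 12 tested cell volume genes or 3 urea genes was called, with 5 and 0 of them at an unadjusted p under 0.05, against 36.8% of all genes, and 3 and 0 called by DESeq2, against 13.6%.

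Between the tissues, 3 of 10 tested glycerol genes were called higher and 3 lower in spermatozoa of Ctrl-F1 males, beside 18.6% and 11.6% of all genes, and 3 and 4 in KO-F1 males, beside 19.8% and 15.8%. Pck1, the gluconeogenic enzyme that turns oxaloacetate into phosphoenolpyruvate, had 2833 and 2769 normalized CPM in Ctrl-F1 liver and 1509 and 2176 in KO-F1 liver (log2 fold change -0.60, adjusted p = 0.503), and was at 0 in all 6 spermatozoa libraries. Lipe, the hormone-sensitive lipase, had 289 and 271 in Ctrl-F1 spermatozoa, 63.3 and 117 in KO-F1 and 323 and 273 in KO-F2. Of 5 tested urea genes, 4 were called lower and 1 higher in spermatozoa in both sire groups, beside the same shares of all genes, the higher one being the urea transporter Slc14a2, with 23.0 and 10.8 normalized CPM in Ctrl-F1 spermatozoa and 0 in liver. Arg1, the arginase of the urea cycle, had 1474 to 1977 in liver and at most 10.2 in spermatozoa. Lrrc8b, a subunit of the volume-regulated anion channel, had 962 and 1635.1 for Ctrl-F1, 438 and 583 for KO-F1 and 1199 and 1410 for KO-F2 spermatozoa, and at most 0.270 in liver. Kcnk5, a potassium channel of cell volume regulation, had 11.3 and 25.9 in Ctrl-F1 spermatozoa, 0.555 and 0.815 in KO-F1 and 11.8 and 11.8 in KO-F2. The KO-F1 values lay under the floor of 3 counts, and the difference from Ctrl-F1 did not pass (log2 fold change -4.60, adjusted p = 0.140 by edgeR).

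The genes most like Aqp11 and Aqp9, the 2 aquaporins with the highest mean over the 6 spermatozoa libraries, were ranked by Pearson's r of log2(normalized CPM + 1) over the 6 spermatozoa libraries, among 6226 genes with at least 10 counts in each. Nearest to Aqp11 were Lrrc57 (r = 0.996) and the deubiquitinase Otud3 (0.995), and 233 genes reached 0.95. Otud3, for example, had 132 and 156 normalized CPM for Ctrl-F1, 37.7 and 40.3 for KO-F1 and 170 and 258 for KO-F2. Nearest to Aqp9 were the homeobox gene Msx1 (0.991), the copper transporter Slc31a1 (0.987) and Fgfr1op2 (0.987), and 49 genes reached 0.95. Slc31a1 had 63.4 and 82.6 for Ctrl-F1, 49.1 and 65.6 for KO-F1 and 15.3 and 17.8 for KO-F2. With 6 libraries in 3 groups, the 2 deepest of which are the KO-F2 libraries, these values are a description.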

How the data were processed

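RNA-seq counts of 10 libraries, 2 biological replicates for each of 5 groups, were analysed; per the labels and the study's methods, 75 bp single-end reads were aligned to GRCm38 with HISAT2 2.1.0 and the authors deposited raw read counts per gene symbol from featureCounts, whose annotation and strand setting are not given in the sources used here. Of 23420 lines, 4 lines of 2 repeated symbols were left out. Genes with low counts were removed with filterByExpr (minimum count 10, minimum total 15). edgeR 4.0.16 (R 4.3.3) with TMM and its quasi-likelihood test was the test, with genes called from a fold of 2 at adjusted p below 0.01; DESeq2 1.42.0 and the scaling and filter alternatives were run beside it. The fits were tested on simulated data. Exon lengths and sequences are from RefSeq, GRCm38.p6. Antisense lncRNAs overlapping Aqp2, Aqp4, Aqp5 and Aqp9 are not in the count files. Scml2 had 0 to 18 counts in each library; these males being wild-type, it does not check the labels. All 10 members are described. Companion genes are those called or among the 3 highest of a list in a tissue. Adam7, Cdh5, Cst8, Egfl7, Fabp4, Foxi1, Kdr, Lcn9, Lyz2, Pecam1, Plin1, Tek and Vwf were named after their values were seen. The third gene most like Aqp11 is not reported here. Members and lists were chosen with earlier results of these data known.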

Additional observations from a re-analysis of the deposited data

Results flagged for a closer look

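The difference of Aqp11 between KO-F2 and KO-F1 spermatozoa passed the test, with a log2 fold change of 2.48 (SE 0.36, adjusted p = 0.00982 by edgeR). Against the shared Ctrl-F1 spermatozoa, Aqp11 had -1.61 in KO-F1 and 0.73 in KO-F2. Each comparison was fitted and scaled on its own, so these values do not add up exactly to 2.48. KO-F2 had no control of its own generation, and generation, strain and run cannot be told apart. Every KO-F1 library lay below and every KO-F2 library above both Ctrl-F1 libraries. The share of all genes with such an order was not determined, so this order has no background to be read against.

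With TMM scaling, Aqp7 also lay on opposite sides of Ctrl-F1 in the 2 generations. Its log2 fold change from Ctrl-F1 was -1.22 in KO-F1 spermatozoa, with both libraries below Ctrl-F1, and 0.76 in KO-F2, with both above. In CPM of the library total, KO-F1 replicate 2 (20.6) lay above Ctrl-F1 replicate 2 (19.3). How many of all genes lay on opposite sides in this way was not determined. The difference between the generations was tested directly and did not pass (log2 fold change 2.16, adjusted p = 0.0735 by edgeR).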

How the results depend on the processing

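The counts of called aquaporins moved in the following cases. DESeq2 called 1 member in KO-F1 against Ctrl-F1 spermatozoa (Aqp11), 1 in KO-F2 against Ctrl-F1 (Aqp9) and 2 in KO-F2 against KO-F1, where edgeR called 0, 0 and 1. For KO-F2 against KO-F1, library totals in place of TMM left 0 (Aqp11 at log2 2.07, adjusted p = 0.0179), and no low-count filter, at least 10 counts in every library, or an adjusted p under 0.05 gave 2. Scaling to the sperm transcripts gave 1, which was Aqp9 (log2 -3.65) and not Aqp11. Leaving out 1 library gave 0 to 2 there, 0 to 1 in liver, 4 to 6 between the tissues of Ctrl-F1 males and 3 to 6 in KO-F1 males. Numbers of called genes overall rose or fell with the same settings, from 0 to 5071 genes for KO-F2 against KO-F1, where scaling to the sperm transcripts gave 41 higher and 5030 lower against 285 and 27 with TMM.

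Reversed directions were found for uncalled differences. For KO-F1 against Ctrl-F1 liver, Aqp11 was -0.000575 with library totals, -0.00726 with the replicate block, and between -0.46 and 0.43 without 1 library, and Aqp8 was between -0.0801 and 1.01 without 1 library. For KO-F1 against Ctrl-F1 spermatozoa, Aqp9 was 0.25 with library totals, and scaling to the sperm transcripts gave 0.61 for Aqp7, 1.66 for Aqp9 and 0.21 for Aqp11; for KO-F2 against KO-F1 it gave -0.14 for Aqp7. This scaling moves all genes alike, with their median going from 0.02 to 1.85 and from 0.13 to -2.16, so these reversals follow from its construction. Library totals also moved all genes alike. Their median went from 0.02 to 0.46 in KO-F1 against Ctrl-F1 spermatozoa, and from -0.00575 to -0.0701 in liver. The cause of the reversals with the replicate block or without 1 library was not tested.

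Same-numbered libraries of different sire groups or generations are different animals, and whether liver and spermatozoa libraries share an animal is not given in the sources used here, so the number was not taken as a pairing. The deviations of same-numbered libraries correlated at r = -0.19 (liver) to 0.25 (KO-F2 against Ctrl-F1 spermatozoa). With the number as a replicate block, 1 aquaporin was called in KO-F2 against Ctrl-F1 spermatozoa (Aqp9, log2 -1.71, adjusted p = 0.00777) and 5 between the tissues of KO-F1 males, and genes called overall went from 0 to 362 in the former. With 2 libraries a group, only large differences could pass, and in comparisons among spermatozoa Aqp1, Aqp3, Aqp4, Aqp5, Aqp8 and Aqp12 were too low to be tested. Lengths by the longest transcript moved only levels of Aqp7 and Aqp9 per kb beyond 1 SD.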
